A study of Mus musculus with 5 samples.

Results

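The regions described here are stretches of open chromatin of mouse hindlimb muscle that were called as peaks in every wild type (WT) library and in none of the muscle lacking Cacna1s (Cacna1s KO). They were selected on the peak calls themselves. A peak of WT E18.5 was taken when at least 1 base of it overlapped a peak of WT E14.5, of WT P5 and of the WT adult, and none overlapped a peak of the E18.5 KO. This gave 2926 of the 91265 WT E18.5 peaks. The 4 WT libraries and the KO shared 31606 peaks, so 8.47% of the 34532 peaks common to all WT ages had no KO call. That share is fixed by the rule and is given as a description. Peaks were called in each library alone, so the KO files hold no count for these regions, and an absent call is not a measurement of closed chromatin.

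The series holds 5 libraries of the 10x Multiome kit, in which 1 nucleus yields both its RNA and its accessible DNA (ATAC). Each group is 1 library from pooled hindlimbs of C57bl6n mice: WT E14.5 (56 limbs), WT E18.5 (14), WT P5 (8), WT adult of 8 weeks (4) and Cacna1s-/- E18.5 (26). The KO carries a germline deletion of Cacna1s coding sequence, so every tissue of the fetus lacks the gene, and the fetuses are paralysed. All nuclei were sorted by PCM1, a protein around myonuclei, and the stained and unstained fractions were pooled at equal volume. The balance of myonuclei and other nuclei was therefore influenced at the bench. The shares of cell types within the unstained fraction were not set by this step. With 1 library per group no test between groups was possible, and every interval below is a 95% interval. Intervals of single levels and ratios cover counting error only. Those of shares treat peaks, windows or genes as independent draws, and none measures spread between animals.

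Transposase cuts DNA that nucleosomes leave exposed, and the pile of cuts at a promoter or an enhancer is called as a peak. In muscle, distal open regions are where MyoD family factors, which bind E-boxes, and MEF2 factors act on genes of contraction. Cacna1s encodes the voltage sensor of excitation-contraction coupling, the protein that passes the electrical signal of the membrane to the calcium store of the fiber. Without it the fiber receives nerve impulses but does not contract.

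The deposited matrices held 23592784 to 48510096 ATAC counts and 21394846 to 49913899 unique molecules (UMIs) per library. The KO was among the shallow ATAC libraries, with 23714252 counts against 44317624 in WT E18.5, and 13899642 of them lay in the 3228 nuclei kept. A nucleus was called a myonucleus when Ttn, Neb, Trdn and Ryr1 made at least 1.5% of its UMIs, or 4% in the adult. Myonuclei made up 30.4% of the kept KO nuclei and 36.7% of the kept WT E18.5 nuclei, and between 37.6% and 85.9% in the other WT libraries. All 12 myonuclear marker genes were higher in the myonuclei than in the other nuclei of every library. Library pairs shared 17 to 47 barcodes, no doublets were removed, and Cacna1s RNA was 2371 UMIs in WT E18.5 myonuclei and 8 in KO myonuclei.

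Sequences of 7 regions on which the results below turn are shown first. They are 300-base windows around the peak centre, on the plus strand of GRCm38 (mm10), read from the RefSeq genome. The first 4 belong to the highest regions among those leaning to myonuclei at every WT age, the next pair to their counterparts in other nuclei, and the last to Nr4a1, an immediate early gene. Capitals mark matches on either strand to the E-box CAGCTG, the TEAD motif GGAATG, the AP-1 motif TGANTCA and the MEF2 motif.
Atp2a1 upstream region, chr7:126465651-126465950: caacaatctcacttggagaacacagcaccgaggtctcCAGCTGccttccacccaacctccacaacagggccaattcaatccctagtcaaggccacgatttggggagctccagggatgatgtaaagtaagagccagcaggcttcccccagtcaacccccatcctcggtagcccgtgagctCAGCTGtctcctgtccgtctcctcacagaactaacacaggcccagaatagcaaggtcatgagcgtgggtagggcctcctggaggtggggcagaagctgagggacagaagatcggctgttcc
Pde4d intronic region, second of a pair, chr13:109915548-109915847: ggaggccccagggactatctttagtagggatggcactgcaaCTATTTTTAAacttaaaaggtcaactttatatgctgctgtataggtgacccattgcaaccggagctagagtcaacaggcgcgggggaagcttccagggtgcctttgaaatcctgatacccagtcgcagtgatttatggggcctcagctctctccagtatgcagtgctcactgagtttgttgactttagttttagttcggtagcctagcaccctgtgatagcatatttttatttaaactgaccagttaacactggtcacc
Cacna1s intronic region, first, chr1:136061218-136061517: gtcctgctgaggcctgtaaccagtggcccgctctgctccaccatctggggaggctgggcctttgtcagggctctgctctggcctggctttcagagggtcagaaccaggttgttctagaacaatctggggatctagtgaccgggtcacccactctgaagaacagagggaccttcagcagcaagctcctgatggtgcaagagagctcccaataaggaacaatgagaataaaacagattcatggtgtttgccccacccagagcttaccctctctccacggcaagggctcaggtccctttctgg
Cacna1s intronic region, second, chr1:136066612-136066911: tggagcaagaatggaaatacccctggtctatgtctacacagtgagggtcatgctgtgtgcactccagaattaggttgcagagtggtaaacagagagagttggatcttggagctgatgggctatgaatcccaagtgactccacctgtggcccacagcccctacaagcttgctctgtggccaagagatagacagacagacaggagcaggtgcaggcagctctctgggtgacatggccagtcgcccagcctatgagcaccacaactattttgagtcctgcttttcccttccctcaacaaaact
Eml1 intronic region, chr12:108403977-108404276: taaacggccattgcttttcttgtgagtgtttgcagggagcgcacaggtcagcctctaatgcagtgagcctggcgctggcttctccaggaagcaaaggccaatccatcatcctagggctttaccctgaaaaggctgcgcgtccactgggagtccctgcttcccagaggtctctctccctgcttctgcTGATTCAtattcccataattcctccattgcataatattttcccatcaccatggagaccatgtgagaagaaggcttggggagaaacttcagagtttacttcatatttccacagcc
Rhoq upstream region, chr17:86961254-86961553: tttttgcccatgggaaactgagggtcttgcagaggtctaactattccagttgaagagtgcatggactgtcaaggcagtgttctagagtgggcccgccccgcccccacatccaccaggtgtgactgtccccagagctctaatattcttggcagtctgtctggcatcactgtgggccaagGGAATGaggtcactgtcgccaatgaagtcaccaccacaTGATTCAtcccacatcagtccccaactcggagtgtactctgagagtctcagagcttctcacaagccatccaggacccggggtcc
Nr4a1 upstream region, chr15:101248223-101248522: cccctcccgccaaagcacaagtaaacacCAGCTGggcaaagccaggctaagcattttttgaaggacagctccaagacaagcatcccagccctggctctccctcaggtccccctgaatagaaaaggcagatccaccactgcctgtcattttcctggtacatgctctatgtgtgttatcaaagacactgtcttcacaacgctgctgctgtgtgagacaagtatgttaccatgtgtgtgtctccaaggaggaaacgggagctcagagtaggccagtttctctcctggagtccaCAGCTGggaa
The Atp2a1 and Nr4a1 windows each held 2 E-boxes, and the Eml1 and Rhoq windows each held 1 AP-1 match. The second window of the Pde4d pair held 1 MEF2 match. Neither Cacna1s window held any of these motifs, which says only that these letters are not in those windows.

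The KO-absent regions were weak beside the peaks of all 5 libraries and close to the ordinary WT E18.5 peak. Their median level in WT E18.5 was 5.00 CPM (ATAC counts scaled to a total of 1000000), against 13.2 CPM for the peaks of all 5 libraries, a ratio of medians of 2.63. The median over all WT E18.5 peaks was 5.38 CPM, and peaks missing from P5, E14.5 or the adult alone had 5.30, 6.18 and 6.54 CPM, so a low level was not particular to absence from the KO. The 10th percentile was 2.86 CPM and the 90th 9.43 CPM, and 247 regions (8.44%) reached 10 CPM, against 61.8% of the peaks of all 5 libraries. The same gap was present in the other WT libraries, with medians of 6.21 against 14.4 CPM at E14.5, 6.14 against 14.3 CPM at P5 and 4.09 against 10.8 CPM in the adult. In the KO itself the 25th percentile of called peaks was 5.11 CPM, so the WT median of the KO-absent regions stood close to it. The 5th percentile of KO peaks was 2.88 CPM, close to the 10th percentile of the KO-absent regions. Most of the regions thus had WT levels at which other peaks were called in the KO. The regions held 1.70% of the WT E18.5 ATAC counts in peaks.

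The share of WT-shared peaks without a KO call fell steeply with the WT level. It was 40.7% (38.6 to 42.8) under 4 CPM, 22.5% (21.3 to 23.8) from 4 to 6 CPM, 11.9% (11.004 to 12.9) from 6 to 8 CPM, 6.56% (5.77 to 7.42) from 8 to 10 CPM and 3.08% (2.64 to 3.58) from 10 to 15 CPM. From 20 to 40 CPM it was 0.301% (18 of 5975 peaks), and at 40 CPM and over a single peak of 5099 had no KO call. The same count was made for peaks missing from 1 WT library alone. Absence from P5 followed a lower line, 26.6% under 4 CPM and 4.83% from 8 to 10 CPM. Absence from E14.5, whose total depth of 23592784 counts is close to that of the KO, was 45.7% and 18.4% in those bins, and absence from the adult, the deepest library, 36.4% and 15.99%. From 10 to 15 CPM the KO value and the P5 value (2.98%, 2.55 to 3.46) had overlapping intervals, while E14.5 (12.3%) and the adult (11.1%) stood above both. Genotype, depth and nuclear makeup cannot be told apart in the KO library.

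**Figure D1:**
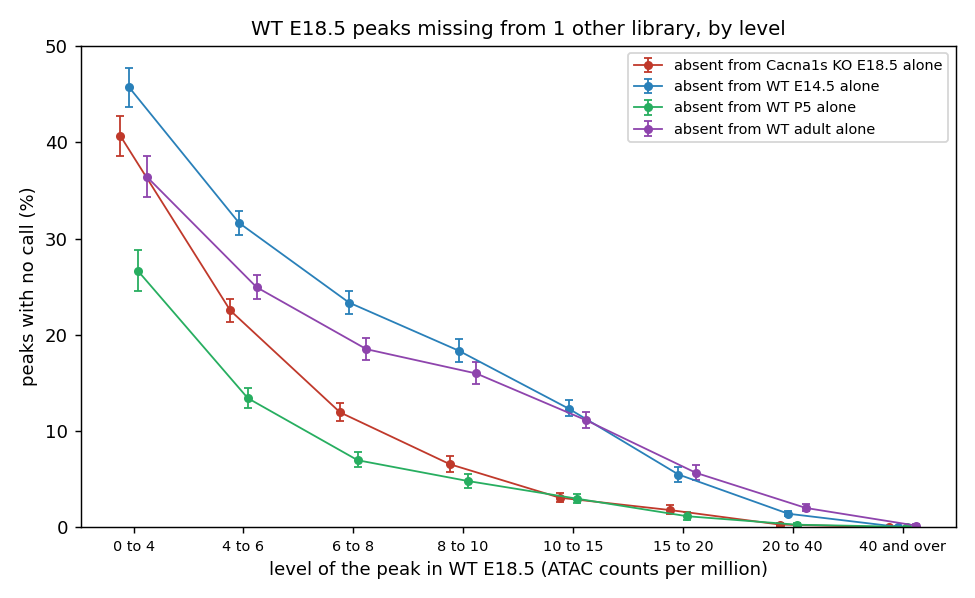
Share of WT E18.5 peaks (vertical axis, percent) that overlap a peak of all other libraries but one, by their level in WT E18.5 (horizontal axis, CPM), with exact 95% binomial intervals. The KO line falls from 40.7% under 4 CPM to 0.301% at 20 to 40 CPM and lies between the P5 line and the E14.5 line from 4 to 10 CPM.

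Strong KO-absent regions often lay beside a KO peak. A KO peak was found within 1000 bases of 337 of the 2926 regions (11.5%), close to the 10.3% of all WT E18.5 peaks that lack a KO peak. That share was 7.30% under 6 CPM, 16.01% from 6 to 10 CPM, 28.1% from 10 to 20 CPM and 11 of 19 (57.9%, 33.5 to 79.7) at 20 CPM and over. The highest region of all, in the promoter of Lnpep, an aminopeptidase gene, had 48.6 CPM in WT E18.5, and a KO peak lay 45 bases away. The region at Lasp1 (33.0 CPM) lay 153 bases from a KO peak and that at Kdm6b (27.8 CPM) 125 bases. At the edge of the rule, the region near Mtmr10 (4.37 CPM) lay 2 bases from a KO peak and counted as absent, while the peak near Ppp1r14c (9.20 CPM) shared 1 base with a KO peak and counted as present. Of the 2926 regions, 2884 matched exactly 1 peak in each WT library and 2819 were covered over at least 50% of their length in each.

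The KO-absent regions were mostly distal. Promoters, within 1000 bases of an annotated transcript start, made up 13.9% of them against 44.8% of the peaks of all 5 libraries. Peaks missing from 1 WT library alone were similar, with 10.9% (E14.5), 15.8% (P5) and 14.996% (adult) in promoters, and over all WT E18.5 peaks the share was 21.8%. Introns held 43.6%, intergenic DNA 37.6% and exons 4.85%. The median distance to the nearest gene start was 20485 bases, beside 19246 for all WT E18.5 peaks, and 75.0% lay within 50000 bases of it. Their centre windows were less GC-rich, with a median of 49.7%, than those of the peaks of all 5 libraries (56.0%), and close to those of all WT E18.5 peaks (51.0%). They were spread over 2624 nearest genes, of which 2361 had 1 region, 228 had 2 and 35 had 3 or more. The nearest gene is used below as an address, without saying that a region acts on it.

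Each region was next set out by nuclear class, as the ratio of its CPM in myonuclei to its CPM in the other nuclei, called at 2-fold in either direction. This ratio was not used by the rule. In WT E18.5, 393 regions (13.4%, 12.2 to 14.7) were higher in myonuclei and 473 (16.2%, 14.8 to 17.6) in other nuclei. Over all WT E18.5 peaks 18.1% were higher in myonuclei and 23.7% in other nuclei, and over the peaks of all 5 libraries 14.1% and 8.87%. So the lean towards myonuclei was close to that of the shared peaks, and the lean towards other nuclei was more frequent than among them. Of the peaks missing from E14.5, P5 or the adult alone, 28.3%, 7.58% and 26.3% were higher in other nuclei at E18.5. Higher in myonuclei were 28.4%, 38.2% and 24.7% of them. A more frequent lean towards other nuclei was therefore not particular to absence from the KO. At E14.5, 10.8% of the regions were higher in myonuclei (21.9% of all E14.5 peaks) and 19.002% in other nuclei (15.6%). At P5 the shares were 16.6% (18.7% of all P5 peaks) and 16.5% (22.6%), and in the adult 20.2% (29.8% of all adult peaks) and 27.8% (25.7%). Through all 4 WT libraries, 184 regions (6.29%) were higher in myonuclei each time and 226 (7.72%) in other nuclei each time, against 7.37% and 4.84% of the peaks of all 5 libraries.

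Because a weak peak is more often missed, absence from the KO was compared within bins of equal WT level. From 6 to 10 CPM, 18.4% (15.96 to 21.1) of the WT-shared peaks that were higher in other nuclei had no KO call, against 5.79% (4.66 to 7.09) of those higher in myonuclei and 9.10% (8.36 to 9.89) of those less than 2-fold apart. Under 6 CPM the shares were 38.0% (34.1 to 42.0) and 22.5% (20.3 to 24.96), and from 10 to 20 CPM 5.90% (4.63 to 7.39) and 1.38% (0.864 to 2.08). At 20 CPM and over the intervals overlapped, 0.701% (0.191 to 1.78) against 0.391% (0.0473 to 1.40). Among marker-defined nuclei, peaks 2-fold higher in mesenchymal nuclei were absent in 19.3% of cases from 6 to 10 CPM and those of tenocyte nuclei in 19.4%. The shares were 9.08% for endothelial nuclei, 10.4% for smooth muscle and pericyte nuclei and 5.75% for muscle stem cell and myoblast nuclei.

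The KO library held a smaller share of counts from mesenchymal and tenocyte nuclei. Mesenchymal nuclei gave 32.2% of the kept ATAC counts in WT E18.5 and 18.8% in the KO, and tenocyte nuclei 9.49% and 4.26%, while stem cell and myoblast nuclei gave 5.29% and 11.3% and myonuclei 40.2% and 41.0%. When the level of each peak was weighted to the makeup of the KO, peaks higher in other nuclei were absent in 13.6% (11.5 to 15.96) of cases from 6 to 10 CPM and those higher in myonuclei in 6.44% (5.21 to 7.84). The gap was narrower than with the unweighted level. This weighting was chosen after the data were seen, and it matches the shares of the classes but not their counts. WT E18.5 held 5.84-fold the KO counts for tenocyte, 4.47-fold for mesenchymal, 2.90-fold for smooth muscle and pericyte and 2.84-fold for endothelial nuclei. For myonuclei it was 2.57-fold and for stem cell and myoblast nuclei 1.22-fold. What underlies the remaining gap was not tested.

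**Figure D2:**
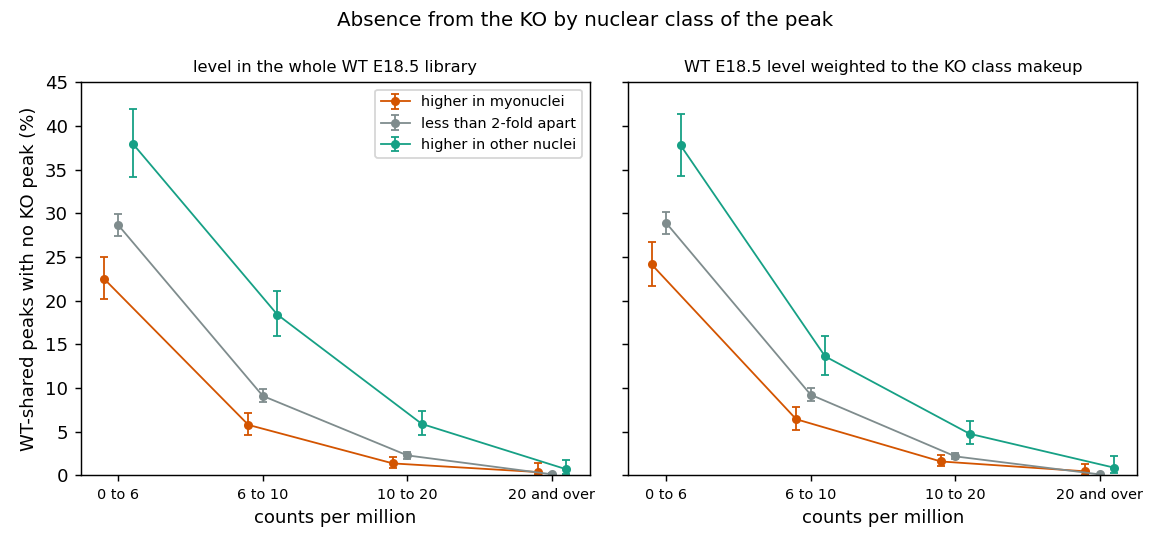
Share of WT-shared peaks without a KO call (vertical axis, percent, with exact 95% binomial intervals) by level in CPM (horizontal axis), for peaks higher in myonuclei, less than 2-fold apart, and higher in other nuclei in WT E18.5. The left panel uses the level in the whole library and the right panel the level weighted to the KO makeup, and from 6 to 10 CPM the outer classes stand at 18.4% and 5.79% on the left and at 13.6% and 6.44% on the right.

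The 10 regions described next had the highest E18.5 level in myonuclei among those at least 2-fold higher there in all 4 WT libraries, so their lean was fixed by the choice and is given as a description. The first of them lay upstream of Atp2a1, which encodes the calcium pump of the sarcoplasmic reticulum in fast fibers (ENSMUSG00000030730; region chr7:126465362-126466240, intergenic, 2693 bases from the gene start). It had 46.6 CPM in myonuclei at E14.5, and then 37.9, 47.2 and 61.1 CPM at E18.5, P5 and adulthood, against 12.8, 7.22, 12.8 and 6.60 CPM in other nuclei. The myonuclear level was the higher one in every library, by 5.26-fold (4.08 to 6.85) at E18.5 and 9.25-fold (6.16 to 14.6) in the adult, and a cut was seen in 14.3% of the E18.5 myonuclei and 2.82% of the other nuclei. In such sums fewer open nuclei and fewer cuts per nucleus cannot be told apart.

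The region in an intron of Actn3, the fast-fiber alpha-actinin of the Z-disc, rose with age in myonuclei from 29.4 CPM at E14.5 and 26.7 at E18.5 to 53.0 at P5 and 64.3 in the adult, while other nuclei stayed between 4.46 and 11.5 CPM. Upstream of Flnc, which encodes the actin cross-linker filamin C, myonuclei had 27.5, 32.2, 51.1 and 32.9 CPM through the 4 ages and other nuclei 10.3, 5.38, 5.94 and 5.20 CPM. That region lay 179 bases from a KO peak, in contrast to the 1570 bases of the Atp2a1 region and the 1052 of the Actn3 region. In an intron of Lrp4, the agrin receptor of the neuromuscular junction, myonuclei had 20.6, 25.9, 32.5 and 25.1 CPM and other nuclei 7.60, 2.25, 2.71 and 2.11 CPM, an 11.5-fold difference (7.54 to 18.3) at E18.5.

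The promoter region of Adssl1, a purine-cycle enzyme of muscle, had 35.3 CPM in E18.5 myonuclei and 89.9 in adult myonuclei, with 14.0 and 14.7 CPM in other nuclei. An intronic region of Castor2, an arginine sensor of the mTORC1 pathway, had 25.8 and 16.3 CPM in E18.5 and adult myonuclei. A pair of neighbouring regions lay in an intron of Pde4d, which encodes a cyclic AMP phosphodiesterase, although the nearest gene start was that of Rab3c, 365928 bases from the first. They had 27.8 and 24.8 CPM in E18.5 myonuclei and 87.8 and 41.7 CPM in adult myonuclei, and at E14.5 both overlapped 1 and the same peak. The nearest KO peak to that first region was 11274 bases away.

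Cacna1s itself held 2 of the KO-absent regions, both intronic and both among the 10 described for myonuclei (ENSMUSG00000026407; chr1:136060952-136061785 and chr1:136066337-136067187). The first had 26.6, 21.4, 32.3 and 30.5 CPM in myonuclei from E14.5 to the adult and 5.27, 1.70, 0.786 and 2.39 CPM in other nuclei. The second had 29.9, 23.2, 31.3 and 29.0 CPM in myonuclei and 5.70, 3.03, 2.53 and 1.69 CPM in other nuclei. The levels of the 2 regions were similar at each age and higher in myonuclei throughout. The promoter peak of Cacna1s (15.98 CPM in WT E18.5) was called in all 5 libraries, and another 2 intronic peaks of 3.84 and 6.45 CPM were absent from E14.5 and from the KO. A further peak inside the gene body (chr1:136104521-136105379, 9.50 CPM in WT E18.5), at the start of a transcript of Gm37759, was called in the KO and, among the WT libraries, at E18.5 alone. RNA of the gene was 259-fold lower in KO myonuclei (131 to 601). A deleted stretch yields no fragments, and no source used here gives the ends of the deletion. At these regions missing DNA, closed chromatin and a peak missed in the shallower KO library cannot be told apart.

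Another 10 regions were taken in the same way from the 226 that were higher in other nuclei in all 4 WT libraries. The first of them, in the promoter of Eva1b, had 33.7, 37.2, 48.2 and 33.1 CPM in other nuclei through the 4 ages and 8.17, 11.3, 15.9 and 5.58 CPM in myonuclei, and a KO peak lay 57 bases away. In an intron of Eml1, which encodes a microtubule-binding protein (chr12:108403680-108404574), other nuclei had 12.0, 26.98, 29.3 and 20.1 CPM and myonuclei 1.502, 6.21, 7.76 and 2.28 CPM. The difference there was 4.34-fold (3.17 to 6.07) at E18.5 and 8.81-fold (5.96 to 13.1) in the adult, with a KO peak 4280 bases away. In an intron of Slc25a21, a mitochondrial carrier gene, other nuclei had 6.31, 21.2, 14.6 and 9.97 CPM, highest at E18.5, and myonuclei 0.786 to 4.42 CPM. Upstream of Rhoq, which encodes a small GTPase, the classes stood closer, 23.5 against 10.3 CPM at E18.5, a 2.28-fold difference (1.76 to 2.99). The others of the 10 were nearest to Trdmt1, Tspan32os, Sept8, Cep63, D6Ertd527e and Hoxa9, and had 19.6 to 27.6 CPM in other nuclei at E18.5.

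Across ages the level of the KO-absent regions was followed in each class and set beside the peaks of all 5 libraries. From E18.5 to P5 their median log2 change in myonuclei was 0.32, with 10.49% of them at least 2-fold up and 1.09% at least 2-fold down, beside a median of 0.11, 3.45% up and 2.01% down for the shared peaks. From E18.5 to the adult the median in myonuclei was -0.26, with 7.69% up and 21.9% down, beside -0.19, 3.36% and 22.3% for the shared peaks. From E14.5 to E18.5 it was -0.22 in myonuclei and -0.44 in other nuclei, beside -0.04 and -0.24, and 9.36% and 14.01% of the regions were at least 2-fold down, beside 3.21% and 6.85% of the shared peaks. The peaks were chosen for a call at all 4 ages, which limits how far they can change. Weak E18.5 peaks also had to be called in the E14.5 and P5 libraries, which held 23592784 and 27092329 ATAC counts against 44317624 at E18.5. That rule favours a higher level at E14.5 and P5. The shared peaks were stronger and were not matched in level, so a change with age particular to these regions was not tested.

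Gene lists gave few regions each. Each share below is set against that of the peaks of all 5 libraries and then that of all WT E18.5 peaks. Genes of excitation-contraction coupling were nearest to 7 regions (0.239% of the regions, 0.202% of the peaks of all 5 libraries and 0.173% of all WT E18.5 peaks): Atp2a1, 2 at Cacna1s, and Mrln, Asph, Cacng1 and Jph2. All 7 were higher in myonuclei at E18.5. Sarcomere and Z-disc genes had 6 (0.205% against 0.259% and 0.205%), of which 4 were higher in myonuclei. Among them was the promoter region of Nrap, a scaffold of growing myofibrils, with 14.0 CPM in myonuclei and 1.33 in other nuclei at E18.5. Fast and mature fiber genes had 5 (0.171% against 0.136% and 0.0997%) and slow fiber genes 0 (against 0.104% and 0.0789%). Developmental and fusion genes had 1 (0.0342% against 0.0949% and 0.130%), which lay in the Ins2 promoter nearest to Igf2.

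Muscle transcription factors were nearest to 15 regions (0.513% against 0.389% and 0.365%), among them 3 at Esr1, 2 at Esrrb and 2 at Myf5. Only 1 of the 15 was higher in myonuclei at E18.5. Immediate early genes had 4 (0.137% against 0.218% and 0.130%). Upstream of Fosl2, an AP-1 subunit gene, the level was 16.8, 18.4, 19.1 and 16.9 CPM in myonuclei and 22.5, 29.4, 34.4 and 38.8 CPM in other nuclei, and the KO peak nearest to it lay 1384 bases away. Upstream of Nr4a1, an orphan nuclear receptor gene (chr15:101247980-101248766), it was 25.9, 17.7, 15.2 and 22.5 CPM in myonuclei and 11.3, 10.9, 13.2 and 8.85 CPM in other nuclei. The classes differed least at P5 there, and the KO peak nearest to it lay 1085 bases away.

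Mesenchymal and matrix genes had 6 regions (0.205% against 0.316% and 0.377%), at Eln, Col6a3, Postn, Tcf7l2 and Lox. Of these regions, 2 were higher in other nuclei. The synapse and fiber-end list had 4 (0.137% against 0.215% and 0.209%) and calcium signalling to the nucleus 4 (0.137% against 0.234% and 0.217%). The list of dystrophin complex and membrane genes had 5 (0.171% against 0.155% and 0.144%), at Ank3, Sptbn1, Dtna and Dysf. Atrophy and growth genes had 5 (0.171% against 0.168% and 0.194%). Fuel genes had 1 (0.0342% against 0.165% and 0.134%), in an intron of Ppargc1b, a coactivator of mitochondrial genes. That region had 38.6 CPM in myonuclei and 12.0 in other nuclei at E18.5, with a KO peak 157 bases away. Muscle stem cell and myoblast genes had 4 (0.137% against 0.184% and 0.157%), of which the 2 at Met shared 1 peak in every other WT library. Vascular genes had 3 (0.103% against 0.108% and 0.119%) and Schwann and nerve genes 2 (0.0684% against 0.0633% and 0.0657%). Tendon, fascia and skeletal genes had 1 (0.0342% against 0.139% and 0.163%) and macrophage and blood genes 0 (against 0.0253% and 0.0241%). Adipocyte genes had 5 (0.171% against 0.0285% and 0.0296%), 3 of them at Plin1, a lipid-droplet gene. At the Plin1 region with the highest level, myonuclei (6.96 CPM) and other nuclei (6.76 CPM) did not differ beyond their intervals at E18.5. The KO held more nuclei with adipocyte markers, 111 against 8 in WT E18.5, and Plin1 RNA was 664 UMIs in its other nuclei against 27. The largest number of regions at 1 gene was 7, at Firre, a long noncoding RNA of the X chromosome with 14 further peaks in all 5 libraries, and this gene was picked after its count was seen. The level of the 7 ran from 2.69 to 4.94 CPM, and Firre RNA in the KO was 0.943-fold (0.873 to 1.02) that of WT in myonuclei.

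Motifs were counted in the 300-base windows outside promoters, 2518 of them in KO-absent regions. The E-box CAGCTG was in 24.5% (22.8 to 26.2) of these windows, against 34.8% of the windows in all 5 libraries, 34.5% of all WT E18.5 windows and 53.3% of the windows missing from the adult alone. Among regions higher in myonuclei it was in 38.6% (33.5 to 43.9), against 57.8% (56.2 to 59.4) of the shared peaks of the same lean. The count was repeated at equal level, since the shared peaks held the E-box more often where they were stronger. Under 6 CPM, where 1719 of the 2518 windows lay, 23.9% (21.9 to 25.9) of the KO-absent windows and 26.1% (24.8 to 27.5) of the shared ones held it, and these intervals overlap. From 6 to 10 CPM the shares were 24.0% (20.7 to 27.6) and 33.1% (31.9 to 34.3). In that bin the myonuclear KO-absent windows had 34.2% (23.7 to 46.0) and the shared ones 56.4% (53.6 to 59.2). Under 6 CPM they had 40.5% (34.5 to 46.8) and 49.0% (45.6 to 52.3), whose intervals overlap.

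The MEF2 motif was in 17.3% (13.5 to 21.7) of the myonuclear KO-absent windows and 13.4% (12.3 to 14.49) of the shared ones, and under 6 CPM in 18.53% (14.0 to 23.8) and 15.5% (13.2 to 18.1), so no difference was detectable at equal level. The AP-1 motif TGANTCA was in 21.6% (17.8 to 25.8) of the KO-absent windows higher in other nuclei and 15.0% (13.6 to 16.6) of the shared ones. From 6 to 10 CPM these shares were 26.0% (19.1 to 33.9) and 14.46% (11.8 to 17.4). Under 6 CPM they were 16.7% (12.0 to 22.4) and 11.7% (8.49 to 15.7), and at 10 CPM and over 27.7% (17.3 to 40.2) and 16.3% (14.2 to 18.53), with overlapping intervals in both bins. The NFI site TTGGCA was in 17.5% (16.01 to 19.01) of all KO-absent windows, 21.4% of the shared ones and 35.5% of those missing from E14.5 alone. The KLF motif CCACCC (26.9% against 29.5%), the TEAD motif GGAATG (19.1% against 20.1%) and the MAF site TGCTGAC (6.71% against 7.34%) were closer. The NFAT motif GGAAAA was in 27.4% against 25.2% and the RUNX motif TGTGGT in 21.7% against 20.6%. CAGCTG is also a match of the wider pattern CANNTG, which 84.0% and 84.7% of the windows held.

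**Figure D3:**
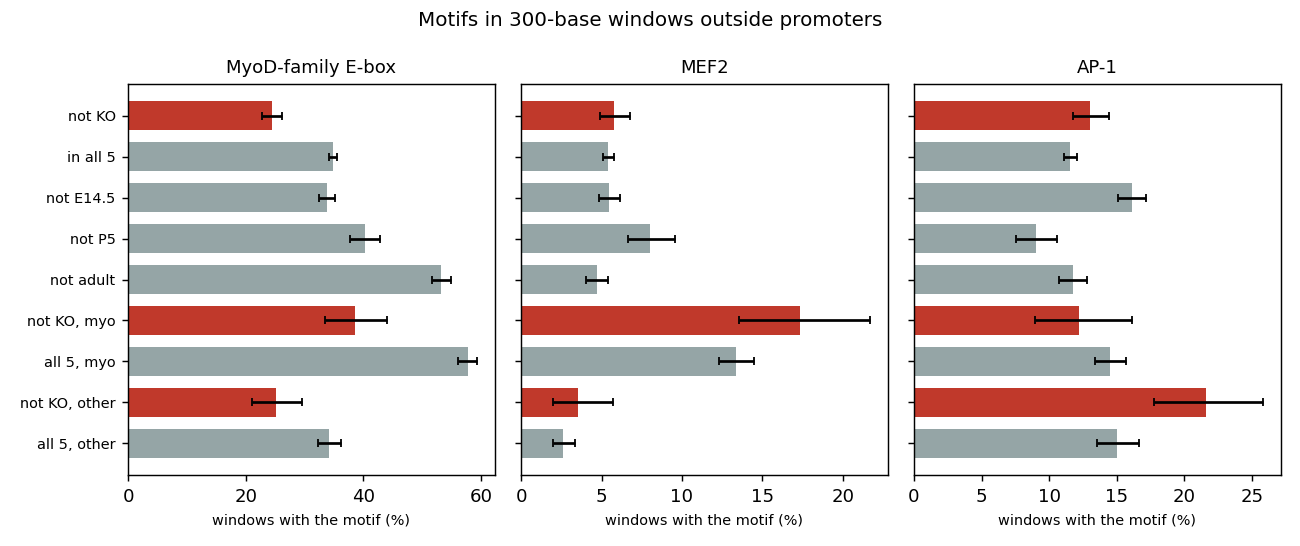
Share of 300-base windows outside promoters that hold a motif (horizontal axis, percent, with exact 95% binomial intervals) for regions absent from the KO (red) and comparison sets of WT E18.5 peaks (grey), where "not" names the library without a call and "myo" and "other" the nuclei in which the peak was at least 2-fold higher. The E-box stands at 24.5% in the regions absent from the KO and 34.8% in the peaks of all 5 libraries, and AP-1 at 21.6% and 15.0% in those higher in other nuclei.

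RNA of the nearest genes was measured in both E18.5 libraries and was not used by the rule. Genes with at least 10 UMIs in WT and KO together were counted and called at 2-fold. In myonuclei, 1671 nearest genes had a median log2 ratio of KO to WT of 0.00, with 143 (8.56%, 7.26 to 10.0) higher and 143 (8.56%, with the same interval) lower in the KO. Over all 17458 genes counted 9.1% were higher and 6.7% lower, with a median of -0.02. In other nuclei 13.5% of 1818 nearest genes were higher and 6.05% lower, beside 11.7% and 5.18% of all genes. The share higher in other nuclei had an interval of 11.9 to 15.1, whose lower end was close to the background. With at least 50 UMIs the share lower in myonuclei was 5.79%, beside 4.69% of all genes, and no interval was computed there. Whether these shares differ from the background was not tested. Among the nearest genes of the peaks of all 5 libraries 5.87% were lower in myonuclei and 9.04% higher in other nuclei. The nearest genes of the regions higher in myonuclei had a median of -0.13 in myonuclei, with 6.64% higher and 9.96% (6.67 to 14.2) lower, whereas those of the shared peaks with the same lean had a median of 0.03 with 7.66% lower.

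The lean of each region was set beside that of its nearest gene in WT E18.5. RNA was at least 2-fold higher in myonuclei for 33.7% (28.2 to 39.6) of the nearest genes of regions higher in myonuclei, against 14.1% of all genes, and at least 2-fold lower there for 16.8% (12.6 to 21.8). It was at least 2-fold higher in other nuclei for 51.5% (45.7 to 57.2) of the nearest genes of regions higher in other nuclei, against 29.2% of all genes, and at least 2-fold lower there for 11.2% (7.90 to 15.3). The shared peaks gave 38.4% and 54.9%, so this lean was not particular to the KO-absent regions.

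RNA of single nearest genes is given as the ratio of KO to WT, to be read beside the 6.7% of all genes that were at least 2-fold lower in myonuclei. Atp2a1 RNA was 11720 UMIs in WT myonuclei and 5699 in KO myonuclei, a 0.556-fold ratio (0.539 to 0.574). Flnc stood at 0.582 (0.552 to 0.615), Lrp4 at 0.625 (0.586 to 0.666), Adssl1 at 0.679 (0.589 to 0.781) and Castor2 at 0.726 (0.673 to 0.784). Actn3 was beyond 2-fold at 0.214 (0.180 to 0.254), and Rab3c had 8 UMIs in each library (1.14, 0.374 to 3.50). From the gene lists, Nrap stood at 0.298 (0.278 to 0.319) and Nr4a1 at 0.400 (0.328 to 0.486). In other nuclei Eml1 stood at 0.612 (0.579 to 0.648), Rhoq at 0.626 (0.592 to 0.662), Slc25a21 at 0.457 (0.384 to 0.543) and Col6a3 at 0.553 (0.537 to 0.569). Other named genes were higher in the KO. Fosl2 was 1.99-fold (1.65 to 2.40) higher in KO myonuclei, Trdmt1 1.47-fold (1.25 to 1.73) higher in KO other nuclei and Cep63 1.21-fold (1.09 to 1.34) higher there. Synpo2, of the same sarcomere and Z-disc list as Nrap, was 1.72-fold (1.60 to 1.85) higher in KO myonuclei. From the list of calcium signalling to the nucleus, Rcan2 was 1.46-fold (1.27 to 1.68) and Mef2c 1.24-fold (1.22 to 1.26) higher in KO myonuclei.

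The 5 lowest and 5 highest ratios in myonuclei were read among nearest genes with at least 100 UMIs. The lowest ratios in myonuclei after Cacna1s were those of Eef1a2, the elongation factor form of adult muscle and nerve, with 123 UMIs in WT and 4 in the KO (0.0372, 0.00998 to 0.0977), Pkp1, Slc17a3 and Creb5 (0.169, 0.154 to 0.186). One of the 2 regions nearest to Eef1a2 lay 2468 bases upstream, with 15.3 CPM in myonuclei and 1.29 in other nuclei at E18.5. The other, in an exon of the gene, had 8.33 and 7.54 CPM at E18.5, and 2.25 and 10.45 CPM at E14.5. The highest were those of Tc2n, Rab27a, Ephb1, Ankfn1 and Trp63, a member of the p53 family (3532 and 11591 UMIs, 3.75-fold, 3.62 to 3.90). Their regions had 3.58 to 9.51 CPM in either class at E18.5, and the one nearest to Ephb1 reached 36.5 CPM in adult myonuclei.

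**Figure D4:**
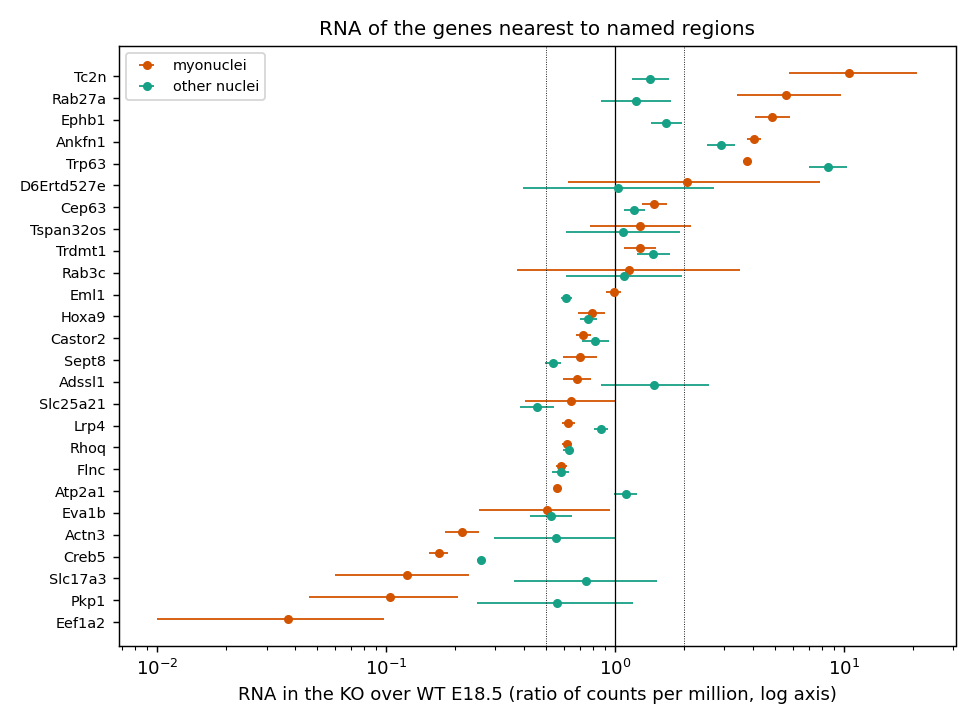
Ratio of RNA level (CPM) in the KO to WT E18.5 (log axis) with exact 95% conditional binomial intervals for the nearest genes of named regions, in myonuclei and other nuclei, where WT and KO together had at least 10 UMIs and Cacna1s is left out. Dotted lines mark 2-fold in either direction, and Eef1a2 (0.0372) and Tc2n (10.49) stand at the ends.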

How the data were processed

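Processed counts of the 5 libraries were used, 1 library per group, and the titles gave the groups. The values are whole-number counts as deposited, UMIs per gene and ATAC cut sites per peak of that library, which the authors obtained with Cell Ranger ARC 2.0.0 on mm10 according to the submitters' processing notes. Most nonzero peak counts were even (83.1% to 84.5%), so intervals used counts divided by 2. Barcodes with over 400 and under 25000 UMIs, under 10% mitochondrial UMIs and under 70000 ATAC counts were kept, as in the study's methods. A minimum of 400 ATAC counts, given in a supplementary legend of the study, was not applied. Of the kept nuclei, 15.4% in the KO and 7.84% in WT E18.5 lay under it. The numbers of nuclei kept differ from those the study reports. Counts were summed per library and class, divided by the class total of the same kind and given as CPM. Peaks of another library were read through the peak with the largest overlap. Sums under 3 counts were set to 3 for ratios. Ratios carry exact conditional binomial intervals and single sums exact Poisson intervals, which cover counting error only. Shares carry exact Clopper-Pearson intervals, which treat peaks, windows or genes as independent draws.

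Genes came from GENCODE M21 on GRCm38, the nearest gene being the one whose start is closest to the peak centre. Marker classes of other nuclei (at least 3 UMIs of 2 markers) were assigned by the most enriched of 8 marker lists. Described regions were the 10 highest in each class among those past 2-fold in all 4 WT libraries, those at Cacna1s and up to 3 per gene list (19 lists), and the 5 highest and lowest RNA ratios over 100 UMIs, without Gm and Rik symbols. The members and lists were chosen with earlier results of these data known. Firre, the regions highest overall and those nearest the rule's limits were chosen after their values were seen. Intervals were computed with scipy 1.17.1, tables with pandas 2.3.3 and numpy 2.4.6 and figures with matplotlib 3.10.9 in Python 3.11.15, and the steps were tested on simulated data.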

Additional observations from a re-analysis of the deposited data

How the results depend on the processing

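No paired analysis was possible because each group has 1 library. The number of regions was 2819 when at least 50% of the peak had to be covered in the other WT libraries and 2589 with no KO peak within 1000 bases. The ratio of median levels stayed between 2.62 and 2.65 under another scaling, other filters on nuclei and a level per kilobase. The share higher in myonuclei was 12.2% without a filter on nuclei and 12.9% to 14.3% under other gates and scaling. The share of nearest genes at least 2-fold lower in the KO was 5.79% with at least 50 UMIs (4.69% of all genes) and 11.3% with a gate of 3% (9.07% of all genes). The E-box was in 18.6% of 200-base windows, against 26.9% of those shared by all 5 libraries. The share higher in other nuclei was 10.97% without the filter on nuclei and 18.4% with a gate of 3%. With absent peaks beside a KO peak left out, an alternative chosen after the data were seen, absence from 6 to 10 CPM was 17.0% for peaks higher in other nuclei and 5.03% for those higher in myonuclei. With no replicate, no value was tested against animal-to-animal spread, and KO levels of these regions were not analysed here.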
